A study of Bos taurus with 16 samples.

Results

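The cytosolic ribosomal protein genes were examined in rumen papillae, the leaf-like projections of the rumen wall of cattle. Members were chosen by symbol, as every gene named RPL or RPS followed by a number, RPLP0 to RPLP2 or RPSA, without the S6 kinases. Of 84 such symbols, 82 had at least 1 exon region of their own among 11996 genes in the deposited table. Of these, 44 encode proteins of the large subunit, 29 encode proteins of the small subunit, 8 are paralogs of such genes, and RPS19BP1 encodes a protein that binds RPS19 and is not part of the ribosome. RPS25 and RPS27A were covered only in regions shared with a neighbouring gene. RPL22 and RPL41 were not analysed here.

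The animals were 16 crossbred steers aged 344 ± 48 days, 4 in each of 4 groups named HG-HI, HG-LI, LG-HI and LG-LI, where HG and LG stand for high and low weight gain, and HI and LI for high and low feed intake. They were picked by where they fell when their gain was set against their intake, received no treatment, and had free access to 1 ration of 57.35% corn, 30% distillers grains and 8% alfalfa, among other ingredients. Each animal gave 1 library of polyadenylated RNA, read as single reads of 50 bases, and the series asks which rumen transcripts differ with gain and intake. Animals are numbered within a group in the order of their records, and a number does not pair animals across groups. The p-values therefore measure the spread between animals.

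Ribosomal proteins assemble with ribosomal RNA into the small subunit, which holds the messenger RNA, and the large subunit, which joins amino acids. Their genes are transcribed at high levels in nearly all cells, and in mammals their mRNAs start with a run of pyrimidines through which the mTOR pathway sets their translation. The epithelium of the rumen papillae absorbs and oxidises short-chain fatty acids and renews itself from a basal layer.

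A gene's level is the mean read coverage per base over its best covered exon region, scaled by the authors so that library totals were nearly equal. Levels are per base and can be compared between genes, with the limit that the regions differ in what they hold: 69 of the 82 include intron sequence, 29 include a first exon, 32 hold 1 exon and 15 hold every listed exon. All coordinates are those of UMD3.1. The members lie on 27 chromosomes, with 9 on chromosome 18 and 4 on X. In bulk tissue, fewer cells of a type and less RNA per cell cannot be told apart.

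The libraries had an estimated 11.9 to 21.2 M reads, and 8.75% to 28.0% of coverage came from mitochondrial regions. First exons were covered unevenly: the first-exon index, the median log2 ratio of first-exon to later-exon coverage over 1186 genes that are not members, lay between −5.00 and −3.56 in 5 libraries and between −2.40 and −0.98 in the other 11. The 5 were animal 4 of HG-HI, animals 2, 3 and 4 of HG-LI, and animal 3 of LG-LI. They are called the 5 libraries low in first exons, and 4 of them are among the 8 high gain animals and 4 among the 8 low intake animals. Epithelial markers were present: mean levels were 190 for KRT5 and 392 for KRT14, both basal keratins, and 397 for IVL, a cornified envelope protein. Of 6 basal markers 5 were at 1 or more in every library, as were all 4 markers of epithelial metabolism. Of 8 suprabasal and cornified markers 6 were measured, and 2 were at 1 or more in every library. Of 4 endothelial markers 2, VWF and CLDN5, were wholly lower in the 5 libraries, with VWF at 0 in all 5 and at 1.92 to 12.6 in the other 11. The summed level of the 4 was 4.46 to 9.23 in the 5 and 6.47 to 22.1 in the 11. That of 5 smooth muscle markers was 2.1 to 18.2 in the 5 and 8.81 to 95.4 in the 11, with 2 markers wholly lower. That of 5 stromal markers was 146 to 893 in the 5 and 131 to 309 in the 11, and that of 3 leukocyte markers 4.27 to 34.7 in the 5 and 18.2 to 62.1 in the 11. All 4 sums overlapped between the 2 sets of libraries.

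The ribosomal protein genes were among the best covered genes in the papillae. The median of their mean levels was 107 over the 81 tested members, against 4.29 over all 9443 tested genes. Of the 50 genes with the highest mean level 15 were members, as were 29 of the top 100 and 62 of the top 500. Mean levels over 100 were found in 43 members, and in 162 of all tested genes. The share of exon-annotated coverage that fell in all exon regions of their own, chosen or not, lay between 3.02% and 8.54% of a library.

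**Figure D1:**
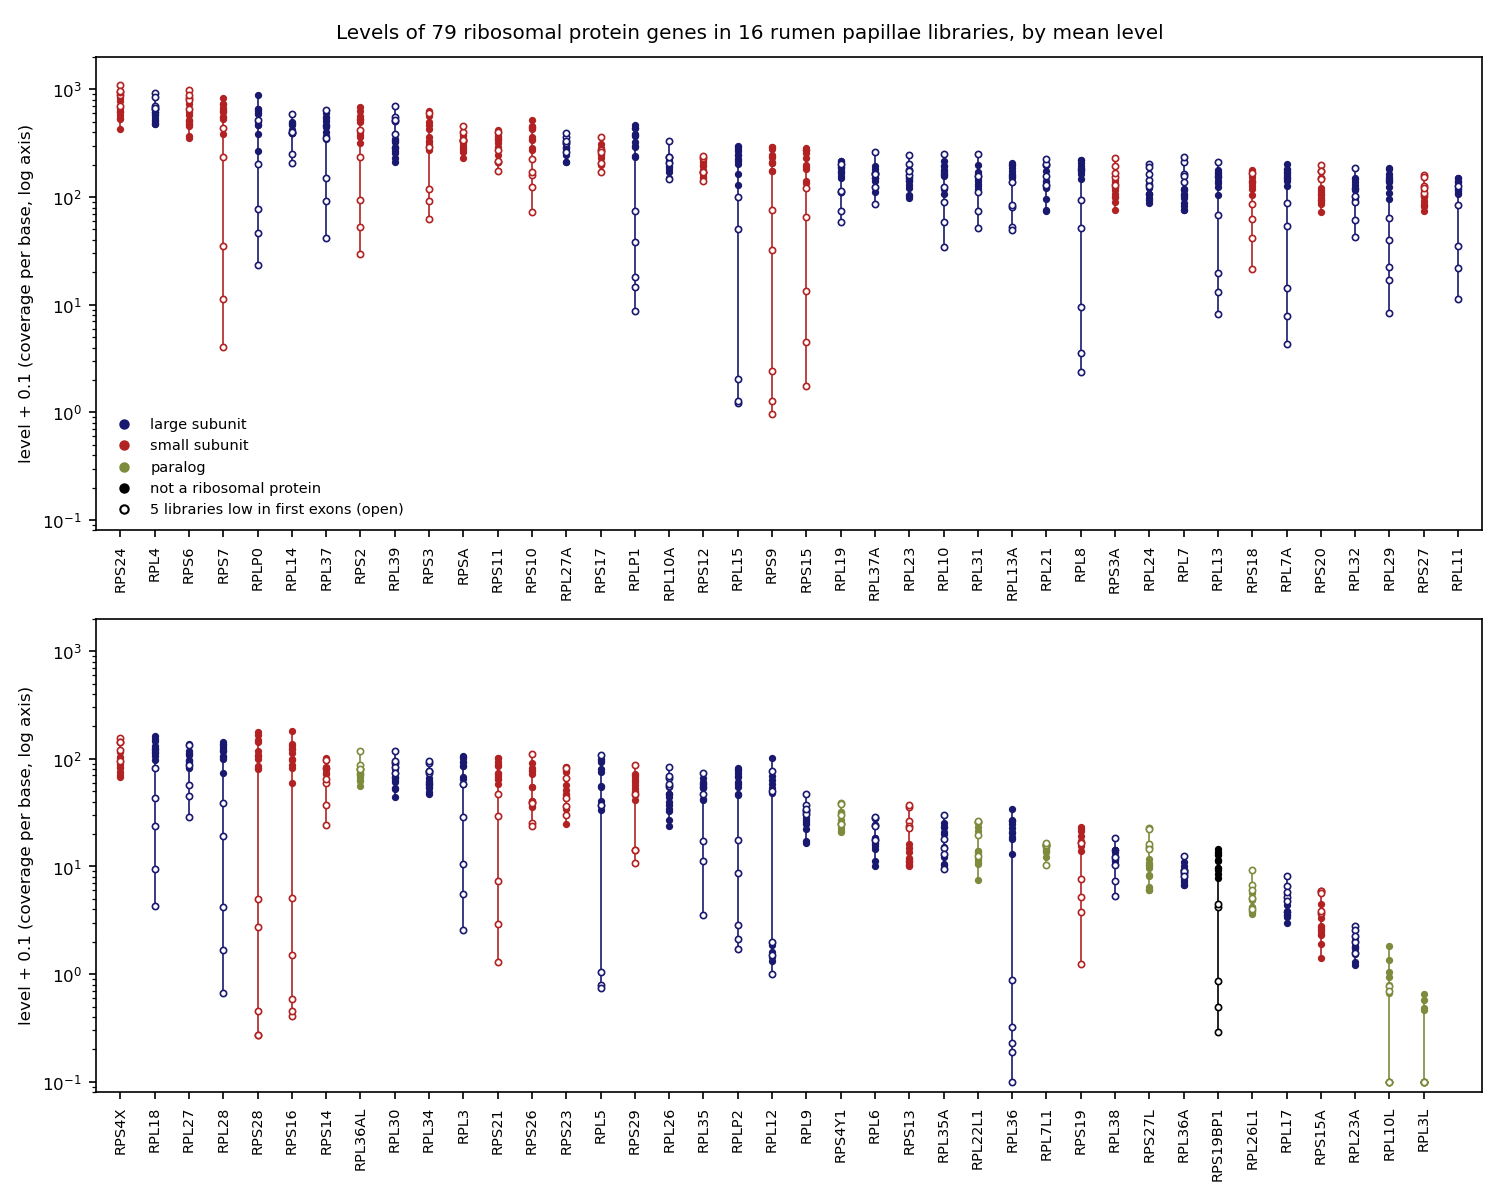
Level of 79 of the 82 ribosomal protein genes in 16 libraries, in order of mean level (log axis, level plus 0.1, coverage per base). Filled points are 11 libraries, open points the 5 libraries low in first exons, and lines span the range. RPS24 stands first with a mean of 719 and RPL3L last with 0.111, and the open points fall far below the filled ones in genes such as RPS16 and RPS28.

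The highest mean level was that of RPS24, a small subunit protein needed for maturation of the small subunit's RNA, at 719 ± 182 (SD, n = 16). RPL4, a large subunit protein that lines the tunnel through which the new chain leaves, followed at 613 ± 130, and RPS6, the substrate of the S6 kinases, at 610 ± 188. These 3 means differed by less than the SD between animals. Other high means were those of RPS7, a small subunit protein that can bind MDM2 in human cells, at 475, RPLP0, which anchors the stalk of the large subunit, at 436, and RPL14 and RPL37 of the large subunit at 412 and 402.

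For RPS24, the 4 values were 530, 433, 824 and 1100 in HG-HI, and 625, 882, 707 and 936 in HG-LI. In the low gain animals they were 578, 670, 546 and 619 in LG-HI, and 619, 682, 971 and 782 in LG-LI. The highest 3 values belonged to libraries low in first exons, and the groups overlapped.

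The RPS6 value came from a region of 75 bases on chromosome 2 (111820688 to 111820762), which the table labels as exon 1 of RPS6. Regions labelled RPS6 also lie on chromosome 8, where a region of 2483 bases with exons 2 to 4 (24927941 to 24930423) averaged 46.2. RPS6 was the only member with regions on 2 chromosomes. Reads that match a gene and a near-identical copy elsewhere could have been placed at either, and the labels do not say how such reads were treated. The level of RPS6 was thus 610 by the one region and 46.2 by the other.

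At the low end, RPL3L averaged 0.111 and RPL10L 0.456. Both are paralogs known in mammals for narrow expression, RPL3L in striated muscle and RPL10L in the testis of mice. RPL3L was listed at 0 in 12 of 16 libraries and RPL10L in 8. Some proteins of the ribosome itself were also low: RPL23A, which sits at the mouth of the exit tunnel, averaged 1.79, RPS15A, a core small subunit protein, 3.35, and RPL17, a protein of the tunnel wall, 4.54. Each of these 3 was represented by a region with 1 exon. RPL26L1, a paralog of RPL26, averaged 4.92.

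All paralogs with a measured partner but RPL36AL had a lower mean level than that partner. RPL7L1, which takes part in ribosome assembly, averaged 14.7 against 125 for RPL7, and RPS27L, known in human cells as a target of p53, averaged 11.5 against 107 for RPS27. RPL26L1 averaged 4.92 against 47.9 for RPL26, RPL10L 0.456 against 149 for RPL10, and RPL3L 0.111 against 64.0 for RPL3. RPS4Y1, in the human genome the Y-linked copy of RPS4X, is the table's name for a gene on chromosome 23, and it averaged 28.1 against 102 for RPS4X. RPL36AL was at 55.6 to 118 over the 16 libraries, against 6.65 to 12.4 for RPL36A, so their ranges did not overlap. RPL22L1 averaged 16.3. RPS19BP1, the binding partner outside the ribosome, averaged 8.15 against 14.5 for RPS19.

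The members differed widely in how steady they were between animals. The SD of the log2 level over 16 libraries had a median of 0.59 in members and 0.66 in all tested genes. Without the 5 libraries low in first exons it was 0.26 in members and 0.40 in all tested genes. Over 16 libraries the steadiest tested members were RPL7L1 (0.18), RPS12 (0.23), RPL36AL (0.24), RPL36A (0.24) and RPSA (0.25). The least steady were RPS28 (3.56), RPS16 (3.37), RPL36 (3.14), RPS9 (2.94) and RPL15 (2.91).

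RPSA, which is both a small subunit protein and the precursor of a laminin receptor, shows the steady kind. Its level was 265, 272, 378 and 398 in HG-HI, 296, 341, 329 and 454 in HG-LI, 231, 349, 317 and 284 in LG-HI, and 332, 392, 339 and 365 in LG-LI. The 4 groups overlapped. The 5 libraries low in first exons were at 329 to 454 and the other 11 at 231 to 392, and 2 of the 5, at 398 and 454, lay above all 11.

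RPS16, whose tail reaches the transfer RNA in the small subunit, shows the other kind. Its level was 82.8, 88.3, 98.4 and 0.31 in HG-HI, and 59.5, 0.35, 1.42 and 5.02 in HG-LI. In LG-HI it was 122, 112, 100.0 and 124, and in LG-LI 136, 131, 0.49 and 181. The 5 values of 0.31 to 5.02 were those of the 5 libraries low in first exons.

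The same 5 libraries held the lowest level of many members and the highest of others. All 5 lay below the other 11 in 19 of 81 tested members (23.5%), a share near the 19.5% of all tested genes. All 5 lay above the other 11 in 10 members (12.3%), against 3.16% of all tested genes. Among the 148 tested genes with a mean level at or above the members' median, members included, the shares were 14.2% below and 6.76% above. In 52 members the 2 sets overlapped. The 2 sets were defined by first exons of other genes, and no test was made of these counts. In members and other genes alike, the region was chosen by its mean over all libraries, the 5 included. High values in the 5 could thus help a region to be chosen. The lowest of the 5 lay more than 10-fold under the median of the 11 in 28 members, and in 2080 of all 9443 genes.

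Among members that were low in the 5 libraries, RPS28, a small subunit protein near the exit of the messenger RNA, was at 0.17 to 4.94 in the 5 and at 80.1 to 176 in the 11. RPL36 of the large subunit was at 0 to 0.79 in the 5 and at 12.9 to 34.4 in the 11. RPS9, a small subunit protein at the entry of the messenger RNA, was at 0.87 to 75.0 in the 5 and at 174 to 291 in the 11. At so low a level in a region of 230 bases, as for RPS28, a value rests on few reads.

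RPLP1 and RPLP2, the stalk proteins that recruit elongation factors to the large subunit, were both lower in all 5. RPLP1 was at 8.71 to 73.8 in the 5 libraries and 235 to 467 in the 11, and RPLP2 at 1.60 to 17.6 in the 5 and 46.5 to 82.8 in the 11. RPLP0, which anchors them, was at 23.1 to 519 in the 5 and 266 to 884 in the 11, with overlap. Of the proteins that form a free particle with a ribosomal RNA and can bind MDM2, RPL11 was at 11.3 to 126 in the 5 and 108 to 152 in the 11, and RPL5 at 0.65 to 107 in the 5 and 33.5 to 99.6 in the 11.

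Among members that were high in the 5 libraries, RPS13 of the small subunit was at 22.8 to 37.5, against 9.90 to 16.0 in the 11. RPL39, a short protein in the wall of the exit tunnel, was at 384 to 702, against 212 to 347. RPS20, a protein of the head of the small subunit, was at 146 to 200, against 73.3 to 123. The highest of the 5 libraries reached 3.33 times the median of the 11 for RPS13, the largest such ratio among the 81 tested members.

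In several genes the same libraries of the 5 stood at the ends. Animal 3 of LG-LI held the lowest value of RPS9, RPL36 and RPLP1, and animal 4 of HG-LI the highest. The median level over the 82 members was 35.4, 31.6, 61.1, 98.8 and 24.5 in the 5 libraries in the order given above, and 89.7 to 138 in the 11. The summed level was 7585 to 15157 in the 5 and 10395 to 15929 in the 11.

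**Figure D2:**
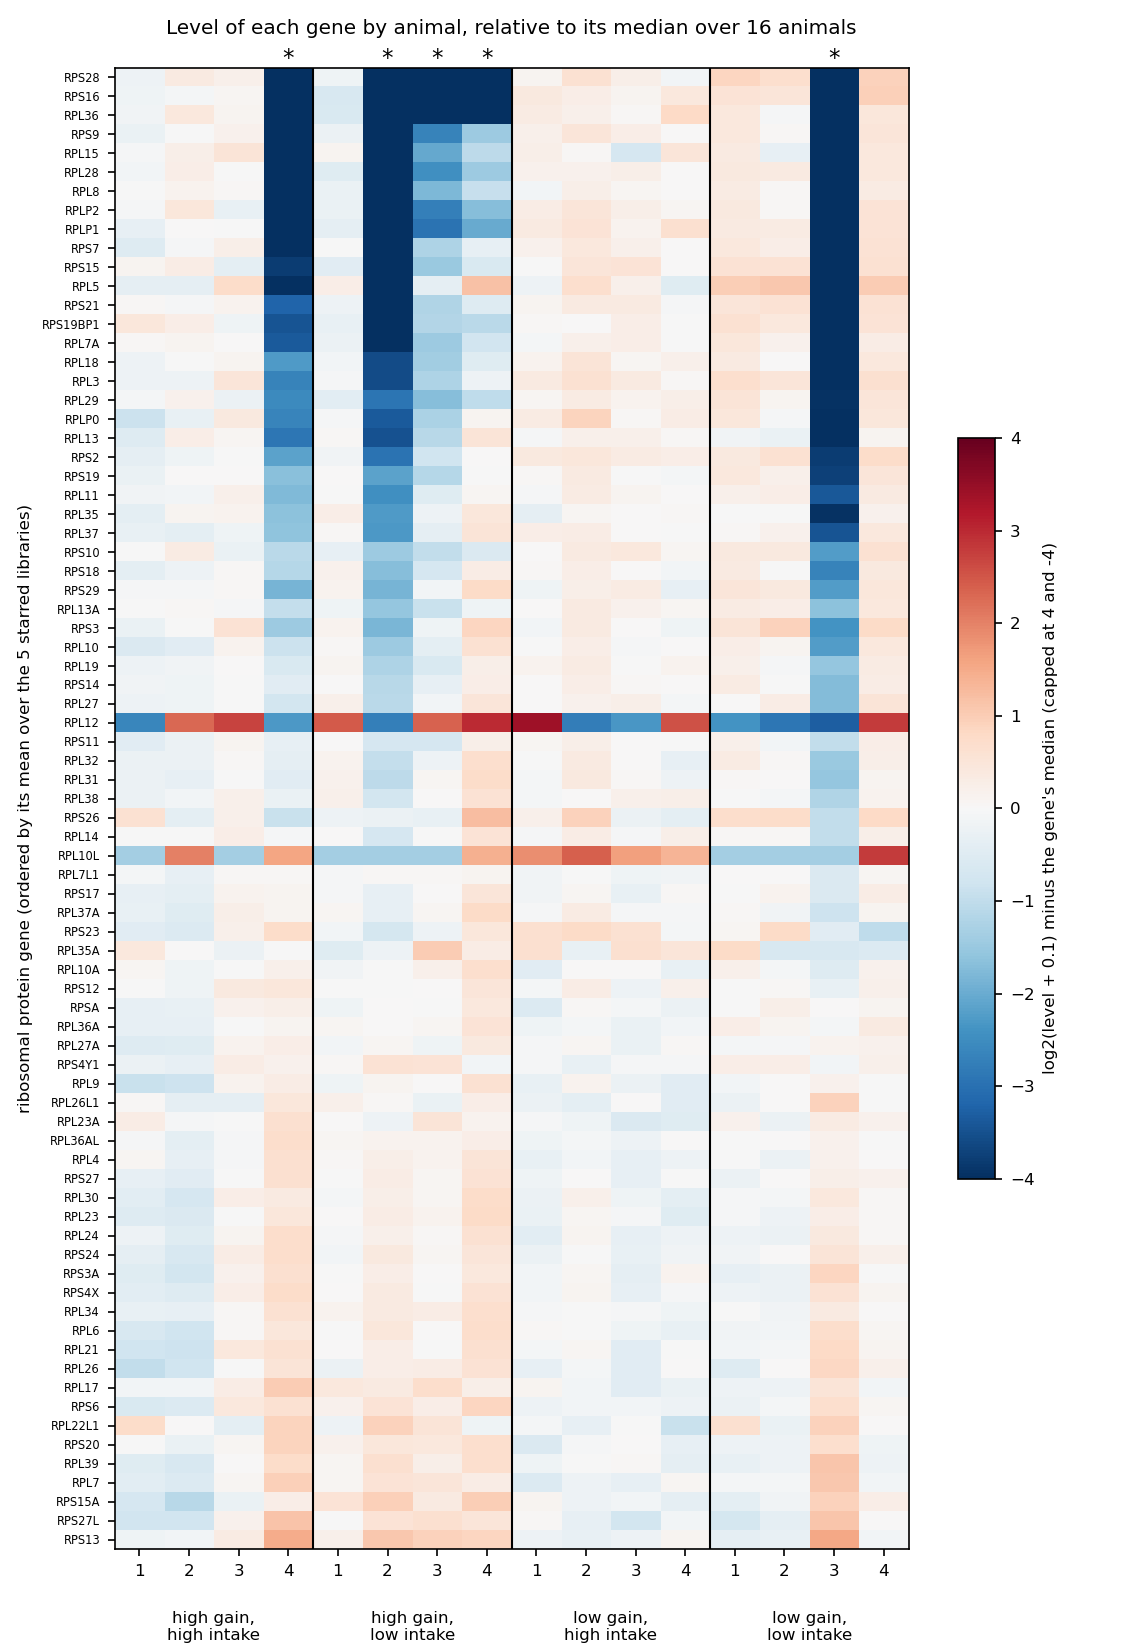
Level of 78 of the 81 tested ribosomal protein genes in each animal, as log2(level + 0.1) minus the gene's median over 16 animals (red higher, blue lower, capped at 4 and −4). Columns are animals by group, stars mark the 5 libraries low in first exons, and rows run by the mean over those 5. The starred columns hold the deepest blue at the top and the red at the bottom, and RPL12 forms a row of its own.

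**Figure D3:**
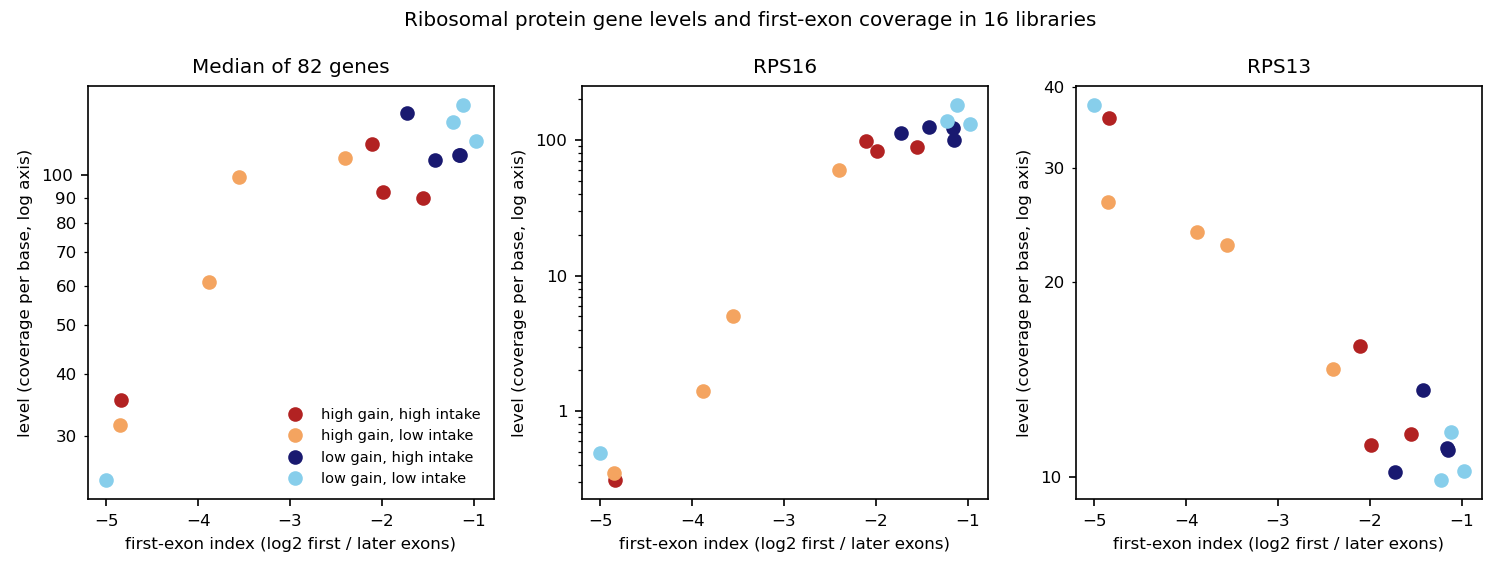
First-exon index of each library (x axis, log2 of first-exon over later-exon coverage in other genes) against the median level of the 82 members, the level of RPS16 and the level of RPS13 (y axes, log, coverage per base). Points are 16 animals, coloured by group. In the 5 libraries with an index of −5.00 to −3.56, RPS16 is at 0.31 to 5.02 and RPS13 at 22.8 to 37.5.

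The pattern was also counted by position within the gene. Of 71 member regions that hold a first exon and have a mean level of at least 1, 25 had all 5 libraries below the other 11 and 0 had all 5 above. Of 135 member regions without a first exon, 22 had all 5 below and 14 had all 5 above. Over all tested genes, 33.8% of 770 genes whose chosen region holds a first exon and 18.2% of 8673 others had all 5 below, and 1.30% of the 770 and 3.32% of the 8673 had all 5 above. These shares count 1 region a gene, whereas a member can enter the counts above with several regions.

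Regions of 1 gene could move in opposite directions. In RPS20, the region with exons 1 and 2 (chromosome 14, 24956012 to 24956466) was at 1.97, 1.18, 6.34, 15.2 and 2.17 in the 5 libraries and at 90.3 to 211 in the 11. The region with exon 4 (24954471 to 24955171), the one chosen for the level, was at 146 to 200 in the same 5 and 73.3 to 123 in the 11. In RPS13, the region with exons 1 to 4 (chromosome 15, 35943176 to 35944758) was at 2.24 to 3.97 in the 5 and 5.68 to 10.9 in the 11, while exons 5 and 6 were higher in the 5. RPS13 and RPS20 were the 2 members with regions wholly below and wholly above. The direction of these genes thus depends on the region that stands for them. In RPS20 the mean over all libraries, which decides the choice, was 121 for exon 4 and 106 for exons 1 and 2. The low values of the 5 libraries in exons 1 and 2 thus entered the choice.

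Not every low region held a first exon. The region of RPL15, 99 bases within exon 4 (chromosome 27, 41932200 to 41932298), was at 1.12 to 100.0 in the 5 and 129 to 296 in the 11. RPL15 is a core protein of the large subunit.

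The first comparison asked which members differed between steers of high and low gain. With limma on all 16 libraries, 0 of 81 members passed an adjusted p of 0.05, and 0% of 9443 tested genes did. The count was also 0 without limma's trend and robust options. At an unadjusted p under 0.05 there was 1 member, RPL17, against 5.28% of all tested genes. Without animal 3 of LG-LI, 26 members reached an unadjusted p under 0.05, against 31.3% of all tested genes, the median over members was −0.29, and 0 members passed the adjusted p, against 0.614%. The median log2 difference over the members was −0.05 (all tested genes −0.04), and 43 of 81 estimates were below 0, against 53.9% of all tested genes. Of the 8 high gain libraries 4 were low in first exons, and of the 8 low gain libraries 1. The summed level of 4 endothelial markers was 4.46 to 13.5 in high gain and 8.22 to 22.1 in low gain animals, that of 5 smooth muscle markers 2.1 to 37.3 in high gain and 3.22 to 95.4 in low gain animals, and that of 5 stromal markers 131 to 327 in high gain and 139 to 893 in low gain animals. All 14 estimates for gain in these 3 lists were below 0. So were 5 of 5 for suprabasal and cornified markers, whose sum was 162 to 564 in high gain and 43.4 to 655 in low gain animals. Below 0 were also 4 of 6 for basal markers, 2 of 3 for leukocyte markers and 1 of 4 for epithelial metabolism. An unadjusted p under 0.05 in limma was reached by 3 of 4 endothelial, 2 of 5 smooth muscle and 1 of 6 basal markers. The other lists had 0, and the share over all tested genes was 5.28%. In each of the lists 0 markers passed the adjusted threshold, and their part in the members' values was not tested.

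RPL17 had a lowest, median and highest level of 3.68, 5.04 and 8.07 in high gain animals, against 2.86, 3.57 and 5.74 in low gain animals. Those levels lay far below the members' median of 107. All 8 high gain animals lay above the low gain median, and the groups overlapped. The log2 difference was 0.44 ± 0.20 (SE), with an unadjusted p of 0.0396 and an adjusted p of 0.847. The other named members above 0 were RPS20 at 0.41 ± 0.19, RPL4 at 0.29 ± 0.15, RPS13 at 0.54 ± 0.30, RPL23A at 0.27 ± 0.19 and RPL10A, part of the mobile stalk that releases spent transfer RNA, at 0.22 ± 0.16, all with an adjusted p of 0.847.

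In the other direction, the level of RPS16 had a lowest, median and highest value of 0.31, 32.3 and 98.4 in high gain animals, against 0.49, 123 and 181 in low gain animals. All 8 high gain animals lay below the low gain median, but the groups overlapped through the libraries low in first exons, and the log2 difference was −2.79 ± 1.46 (adjusted p = 0.847). RPLP1 was at 14.6, 154 and 301 in high gain animals, against 8.71, 382 and 467 in low gain animals, a log2 difference of −1.48 ± 0.88.

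RPL36 and RPS28 had log2 differences of −2.29 ± 1.33 and −2.51 ± 1.62. RPL13A, known in human cells for silencing inflammatory mRNAs away from the ribosome, was at −0.46 ± 0.31, and RPS10, which is ubiquitinated on stalled ribosomes, at −0.55 ± 0.37. The adjusted p was 0.847 for each. For RPS28 the high gain libraries alone spanned 0.17 to 119, while the 5 libraries low in first exons were at 0.17 to 4.94.

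Without the 5 libraries low in first exons, 4 high gain and 7 low gain libraries were left, with 1 of high gain and low intake, whose spread is assumed to be that of the other groups. RPS16 then passed, with a log2 difference of −0.83 ± 0.14 (adjusted p = 0.0449). Its level was 82.8, 88.3, 98.4 and 59.5 in the 4 high gain animals, against 122, 112, 100.0, 124, 136, 131 and 181 in the 7 low gain animals, with no overlap. It was the only member of 81 to pass, where 0.614% of all tested genes did, 58 in all and each of them lower in high gain. An unadjusted p under 0.05 was reached by 17 members, against 12.2% of all tested genes. Of these 17 members 16 were lower in high gain, as were 956 of the 1156 tested genes with such a p. The median over members was −0.16 (all tested genes −0.04), and 62 of 81 estimates were below 0, against 55.0% of all tested genes.

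RPS2, a small subunit protein at the entry of the messenger RNA, came next in those 11 libraries. Its level was 321, 362, 403 and 374 in the 4 high gain animals, against 532, 563, 517, 495, 533, 624 and 683 in the 7 low gain animals. The groups did not overlap, and the log2 difference was −0.63 ± 0.13 (adjusted p = 0.0628). RPLP1 was at −0.64 ± 0.15 (adjusted p = 0.0902) and, of other large subunit proteins, RPL28 at −0.49 ± 0.13 (adjusted p = 0.120) and RPL29 at −0.53 ± 0.15 (adjusted p = 0.143).

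Also among these 11, first exons were less covered in high gain animals. The first-exon index was −1.99, −1.56, −2.10 and −2.40 in the 4 high gain libraries, against −1.16, −1.72, −1.15, −1.42, −1.23, −0.98 and −1.12 in the 7 low gain libraries, with 1 pair crossing. The region of RPS16 holds exons 1 and 2. When the index was instead added to the model over all 16 libraries, the estimate of RPS16 turned to 0.50, and 11 members passed, all higher in high gain, against 8.45% of all tested genes. Among them were RPL28, RPL35, RPS19BP1, RPL7A, RPL8, RPS7, RPS21, RPL13 and RPS9, with RPL28 at 1.48 ± 0.33 (adjusted p = 0.0235) and RPL35 at 1.27 ± 0.29 (adjusted p = 0.0248). With the 5 libraries left out, 10 of these 11 members, RPL28 among them, had the opposite sign, and RPL35 kept its sign at 0.11.

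**Figure D4:**
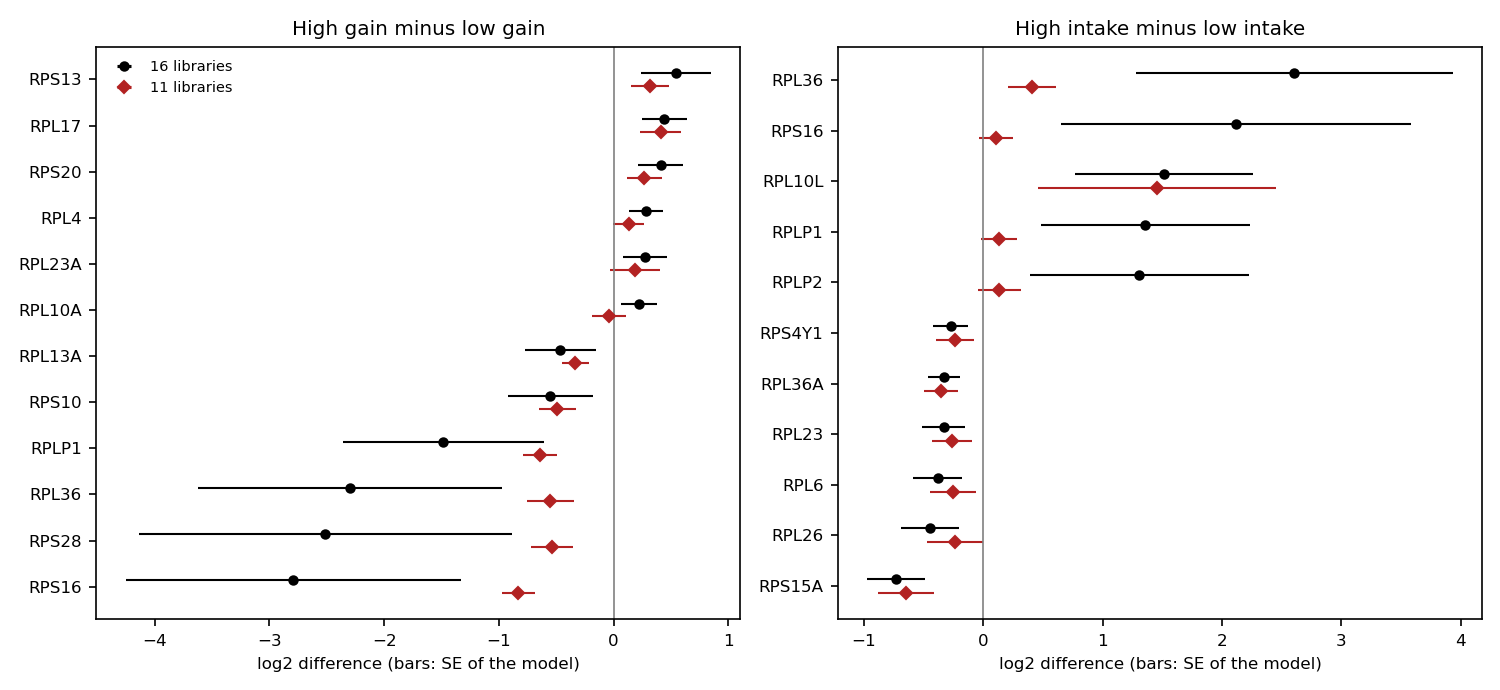
Log2 difference (x axis, bars are the SE of the limma model) of members with the smallest p in each direction, 12 for high gain minus low gain (left) and 11 for high intake minus low intake (right). Black circles use 16 libraries and red diamonds the 11 without the libraries low in first exons. In the gain panel RPS16 moves to −0.83 with a far smaller error, and in the intake panel RPS15A moves to −0.65.

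The second comparison asked which members differed with intake. Again 0 of 81 members passed in limma, and 0% of all tested genes did, and 2 members had an unadjusted p under 0.05, against 8.28% of all tested genes. The median log2 difference was 0.13 over members and −0.01 over all tested genes, with 34 of 81 estimates below 0, against 50.4%. Of the 8 high intake libraries 1 was low in first exons, and of the 8 low intake libraries 4. The sign of the members' median turned without these 5 libraries. It was then −0.13, the same as over all tested genes, with 60 of 81 members below 0, against 65.9% of all tested genes, and 0 members passed, against 0%. With the first-exon index added to the model it was −0.12, with 63 of 81 below 0, against 58.6%. It was −0.06 without animal 2 of HG-LI and −0.08 without animal 3 of LG-LI. The number with an unadjusted p under 0.05 was 20 without animal 4 of HG-HI, against 25.0% of all tested genes, while 0 members passed, against 0.0106%.

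Cell type markers were read for intake as well. Of 5 stromal markers 3 had an unadjusted p under 0.05, with 4 of 5 estimates below 0 and a sum of 131 to 289 in high intake and 146 to 893 in low intake animals. Of 4 endothelial markers 2 did, with 2 estimates below 0 and a sum of 4.46 to 20.8 in high intake and 5.03 to 22.1 in low intake animals. Of 4 markers of epithelial metabolism 2 did, with 3 estimates below 0, as did 1 of 5 suprabasal and cornified markers. The smooth muscle, basal and leukocyte lists had 0. In all 7 lists 0 markers passed the adjusted p, and their part in the members' values was not tested.

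RPS15A had the smallest p of any member in this comparison. Its mean level of 3.35 was the lowest of the 29 small subunit members, whose median was 133. Its level was 1.80, 1.30, 2.42 and 3.56 in HG-HI and 3.20, 2.53, 2.68 and 2.25 in LG-HI, against 4.37, 5.79, 3.77 and 5.84 in HG-LI and 2.22, 2.66, 5.62 and 3.52 in LG-LI. All 8 high intake animals lay below the low intake median, though the groups overlapped. The log2 difference was −0.73 ± 0.24, with an unadjusted p of 0.00856 and an adjusted p of 0.528, and without the 5 libraries it was −0.65 ± 0.23 (adjusted p = 0.422).

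RPL36A, a large subunit protein at the exit site of the transfer RNA, had a lowest, median and highest level of 6.65, 7.62 and 9.16 in high intake animals, against 8.01, 9.03 and 12.4 in low intake animals. Of the high intake animals 7 of 8 lay below the low intake median. The log2 difference was −0.33 ± 0.13, with an unadjusted p of 0.0282 and an adjusted p of 0.528. RPL23, which contacts EIF6 at the face of the large subunit, was at −0.33 ± 0.18, RPS4Y1 at −0.27 ± 0.15, RPL6, also of the large subunit, at −0.38 ± 0.21 and RPL26, a protein at the tunnel exit, at −0.45 ± 0.24, all with an adjusted p of 0.528.

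Among the 6 members above 0 with the smallest p were RPL10L at 1.51 ± 0.75, RPL36 at 2.61 ± 1.33, RPLP1 at 1.36 ± 0.88, RPS16 at 2.12 ± 1.46 and RPLP2 at 1.31 ± 0.92, all with an adjusted p of 0.528. RPL36 had a lowest, median and highest level of 0.22, 21.9 and 34.4 in high intake animals, against 0, 6.82 and 26.9 in low intake animals. Without the 5 libraries its log2 difference was 0.41 ± 0.20 and that of RPS16 was 0.11 ± 0.14. RPL10L was listed at 0 in 2 of 8 high intake and 6 of 8 low intake libraries.

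The third comparison, the interaction, asked whether the gain difference changed with intake. Of 81 members 0 passed in limma, and 0% of all tested genes did, and 0 members had an unadjusted p under 0.05, against 0.519% of all tested genes. The median was −0.21 over members and −0.01 over all tested genes. The smallest p in each direction belonged to RPS15A at −0.85 ± 0.48 and RPL22L1 at 0.69 ± 0.52, and both had an adjusted p of 1.00. The other named members were RPL35A at −0.73 ± 0.53, RPL37A at −0.51 ± 0.38, RPL23A at 0.52 ± 0.39 and RPL26L1 at 0.32 ± 0.39.

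The fourth comparison set the animals that gained much on little feed, HG-LI, against those that gained little on much, LG-HI. Here 3 of 4 HG-LI libraries and 0 of 4 LG-HI libraries were low in first exons, so first-exon coverage and the group cannot be told apart. In limma 0 of 81 members passed, and 0% of all tested genes did, and 8 members had an unadjusted p under 0.05, against 13.5% of all tested genes. Leaving out 1 library moved that number to between 0, without animal 2 of HG-LI, and 23, without animal 3 of LG-LI. The median was −0.21 over members and 0.01 over all tested genes. Without the 5 libraries 0 members passed, against 0.0212% of all tested genes, with 1 HG-LI library left, and the median over members was 0.03.

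RPL36 was at 12.9, 0.13, 0.09 and 0.79 in HG-LI, against 24.7, 22.8, 20.4 and 34.4 in LG-HI. The groups did not overlap, and the log2 difference was −4.90 ± 1.88 (adjusted p = 0.368). The 1 HG-LI library outside the 5 low in first exons was also below all 4 LG-HI libraries. Its first-exon index, −2.40, was below theirs too, which lay between −1.72 and −1.15. RPS15A was at 4.37, 5.79, 3.77 and 5.84 in HG-LI, against 3.20, 2.53, 2.68 and 2.25 in LG-HI, again with no overlap, and a log2 difference of 0.85 ± 0.34. RPS20 was at 0.67 ± 0.27, RPL4 at 0.47 ± 0.21, RPS16 at −4.91 ± 2.07 and RPL10L at −2.48 ± 1.06, all with an adjusted p of 0.368.

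The summed level of the members is a simple measure of the module per animal. It was 10395, 11120, 13896 and 9734 in HG-HI, and 12292, 7618, 9642 and 15157 in HG-LI. In LG-HI it was 12625, 15047, 12702 and 12827, and in LG-LI 14258, 13704, 7585 and 15929. The groups overlapped, with means of 11286 ± 1829, 11178 ± 3271, 13300 ± 1168 and 12869 ± 3648 in that order (SD, n = 4 each). The 4 lowest sums all belonged to libraries low in first exons.

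A split that followed neither the groups nor first-exon coverage appeared in RPL12, a protein at the base of the stalk. Its region with exons 3 and 4 (chromosome 11, 98192805 to 98193642) was at 1.51, 48.4, 63.8 and 1.89 in HG-HI, and 53.5, 1.39, 49.8 and 77.6 in HG-LI. In LG-HI it was 103, 1.33, 1.86 and 57.7, and in LG-LI 1.77, 1.23, 0.90 and 68.6. Thus 8 animals lay between 48.4 and 103, the other 8 between 0.90 and 1.89, and every group held animals of both kinds. The neighbouring region with exons 6 and 7 (98188729 to 98192136) was at 2.94 to 5.09 in all 16 animals, with no such split.

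RPL15 also had a region that split the animals, of 97 bases in exon 4 (chromosome 27, 41931011 to 41931107). It was at 47.1 in animal 4 of HG-HI, 40.6 and 68.8 in animals 3 and 4 of HG-LI, and 51.7 in animal 1 of LG-HI, and at 0 to 1.16 in the other 12 animals. All of these 4 high animals but animal 1 of LG-HI gave libraries low in first exons. Animal 2 of HG-LI and animal 3 of LG-LI, also low in first exons, were on the low side. A further region of 190 bases in the same exon (41930577 to 41930766) was at 21.2, 18.8, 17.1 and 4.35 in the same 4 animals, in the order of group and number, and at 0 to 0.58 in the other 12. The region with exons 3 and 4 (41932444 to 41933753) was at 1.56 to 3.67 in all 16. Animals 3 and 4 of HG-LI and animal 1 of LG-HI were high in the regions of both genes.

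**Figure D5:**
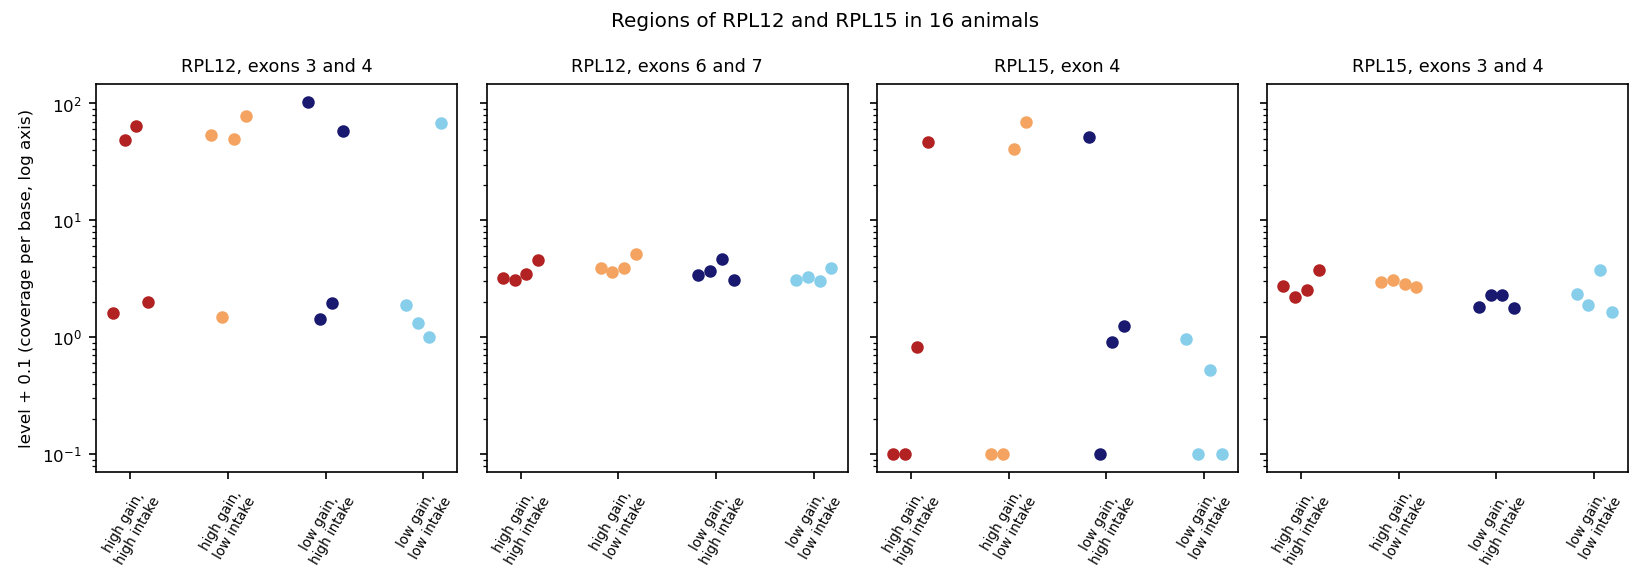
Level plus 0.1 (log axis, coverage per base) in 16 animals by group for a region of RPL12 and one of RPL15 with 2 separate levels, each beside another region of the same gene. RPL12 exons 3 and 4 are high in 8 animals and RPL15 exon 4 in 4, while the neighbouring regions stay within 2.94 to 5.09 and 1.56 to 3.67.

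A rule for such regions was set after these values were seen, asking for a gap of at least 3 (8-fold) between sorted log2 levels. At least 2 animals had to lie on each side, and the highest level had to be at least 10. The rule also left out regions whose low side held only libraries low in first exons. It was met by 2 of 150 member regions and 42 of 12897 exon regions (0.326%). A low side that held all 5 libraries low in first exons together with others was kept. Regions of GPX4, SOD2 and GUK1 with exon 1, and some of COL1A1 and COL1A2, were of that kind. The 42 are thus not free of the pattern of these libraries. The 42 included regions of EEF1A1, the elongation factor that delivers transfer RNA, and of EIF5, an initiation factor. Of the 42, 14 were 93 to 99 bases long. Sequence differences between animals and copies elsewhere in the genome were not analysed here.

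Lists of translation and ribosome assembly genes outside the rule were read from the same fit. FAU, which encodes a ribosomal protein fused to a ubiquitin-like protein, had a mean level of 388. It was at 8.64 to 408 in the 5 libraries low in first exons and 395 to 696 in the other 11, and it did not pass for gain or intake.

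Of 8 elongation factors, 0 passed for gain or intake, and EEF2, which moves the ribosome along, and EEF1D, an exchange factor, had all 5 libraries below the other 11. EEF2 was at 21.8 to 85.0 in the 5 and 96.8 to 153 in the 11. Of 30 measured initiation factors 0 passed, with 3 below and 2 above in all 5. For both lists, the shares over all tested genes were 19.5% below and 3.16% above. EIF4EBP1, the translation repressor switched off by mTOR, was at 0 to 0.49 in the 5 and 3.77 to 13.4 in the 11, whereas its relative EIF4EBP2 was at 30.4 to 37.6 in the 5 and 20.8 to 28.5 in the 11.

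Other mRNAs known in mammals to start with a pyrimidine run, TPT1, PABPC1, NPM1, NAP1L1, HNRNPA1 and VIM, gave 0 calls in 6, with a median log2 difference of 0.14 for gain and −0.26 for intake. The ribosome assembly list gave 0 calls in 36 measured genes. Its smallest p values were those of RRS1 (−0.33 ± 0.13 for intake, unadjusted p = 0.0249) and NIP7 (−0.74 ± 0.30, unadjusted p = 0.0285), both known in yeast for assembly of the large subunit, and both had an adjusted p of 0.528.

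In the RNA polymerase I list, which makes the ribosomal RNA precursor, 0 of 12 tested genes passed, and 9 of 12 estimates for intake were below 0, against 50.4% of all tested genes. Its subunit gene POLR1E had a mean of 3.83 ± 0.910 in high intake animals and 6.60 ± 1.37 in low intake animals (SD, n = 8 each). That gave a log2 difference of −0.77 ± 0.19, with an unadjusted p of 0.000874 and an adjusted p of 0.523 in limma. Of 8 measured regulators of ribosome synthesis 0 passed, and 3 had all 5 libraries below the other 11, against 19.5% of all tested genes. Among these 3 were RPTOR and RPS6KB2, both of the mTOR pathway. MYC was at 10.4 to 17.2 in the 5 and 8.39 to 20.3 in the 11.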

How the data were processed

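Polyadenylated RNA from rumen papillae of 16 steers was analysed, with groups taken from the labels. The submitters' processing notes name TopHat2 2.08b and UMD3.1. Not given in the sources used here were aligner settings, annotation, treatment of multiply matching reads and coverage tool. The 1 deposited table lists 2351373 regions. Its signal values, as deposited by the authors, are mean read coverage per base times 1 factor per library, read from the values: level times length sums to totals within 1.01-fold between libraries. The authors also deposited a ratio (fold), its log2 value, a p-value and other derived columns per region, and none of these was used. The table holds no read counts, so no count test or counting interval was made, and depth was estimated from the value of 1 read.

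Of 113576 exon regions, 518 were dropped because they held exons of more than 1 gene. Each gene was represented by its best covered exon region, judged by the mean of all libraries. The filter asked for 0.5 or more in 4 or more libraries, which 9443 of 11996 genes passed, among them 81 members but not RPL3L. Models of log2(value + 0.1) used limma 3.58.1 (R 4.3.3; moderated, trend and robust) with 4 group means over all libraries, two-sided, and Benjamini-Hochberg adjustment over all tested genes at 0.05. A log2 difference understates the change of genes near 0.1. The first-exon index used 1186 genes with at least 6 exons and a mean coverage of at least 5. The fit was run on simulated data with independent noise for each gene and library. Those data held no shift shared by libraries, so they do not cover the libraries low in first exons. SE is that of the model and ± with n gives the SD between animals; nothing in the labels pairs animals.

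The members, related lists and rules were chosen with earlier results of these data known. Named members are those past the threshold, filled up with the 6 (3 for the interaction and for HG-LI against LG-HI) smallest p in each direction, the 8 highest and 6 lowest means, the largest and smallest SD, fixed genes, and paralogs with their partners; others named were chosen after their values were seen. Alternatives were pseudocounts of 1 and 0.01, no filter, plain limma, 2 scalings, 2 gene levels, the index as a covariate, and leaving out libraries. Sequences of the members were not used here, and a few genes are not reported here by name or in the figures.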

Additional observations from a re-analysis of the deposited data

Results flagged for a closer look

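Within the 4 animals of a group, 17 of 92 sets of levels examined (named members, the summed level and the median level) held 1 animal far from the other 3, where chance flags about 1 in 20 groups. The 92 sets share animals and libraries and are not independent. Members were named in part for a small p or an extreme level or SD in these data. The 1 in 20 is thus not the rate to be met by these sets.

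Of the 5 libraries low in first exons, animal 3 of LG-LI stood apart in 6 genes: RPL13A at 49.5 (others 186 to 209), RPLP1 at 8.71 (370 to 438) and RPS28 at 0.17 (148 to 176) were low, and RPL17 at 5.74 (3.44 to 3.67), RPS13 at 37.5 (9.90 to 11.8) and RPS20 at 173 (93.8 to 97.1) were high. Animal 4 of HG-HI was low in RPL13A at 81.0 (152 to 160) and in RPS16 at 0.31 (82.8 to 98.4).

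In HG-LI, 3 of 4 libraries were low in first exons, so the library that stood apart was animal 1, high in RPL36 at 12.9 (0.09 to 0.79), RPS16 at 59.5 (0.35 to 5.02) and RPS28 at 82.9 (0.35 to 4.94). In the same group animal 4 was high in RPL36A at 12.4 (8.61 to 8.90) and in RPL10L at 0.60 (0 in the other 3).

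RPL10L was also high in animal 4 of LG-LI at 1.71 (0 in the other 3). Where the other 3 are at 0, any value above 0 is flagged. In LG-HI, animal 2 was low in RPS4Y1 at 21.3 (25.3 to 25.7) and had the highest summed level, 15047 (12625 to 12827), and the highest median level, 133 (107 to 110), of the ribosomal protein genes in its group. What set these animals apart was not tested.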

How the results depend on the processing

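Of the 4 counts of called members, those for intake, the interaction and HG-LI minus LG-HI were 0 under each of the alternatives run, and leaving out 1 library at a time gave 0 for all 4. The gain count was 0 except with the first-exon index as a covariate (11, all higher) or with the 5 low first-exon libraries removed (1, lower). No paired analysis was possible because animal numbers follow record order and link no animals between groups.

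Log2 estimates changed sign as follows; 0 of these estimates passed the threshold. With the index in the model, the gain estimates became 0.50 for RPS16, 0.65 for RPL36, 0.50 for RPLP1, 1.17 for RPS28, 0.18 for RPL13A, 0.24 for RPS10 and −0.10 for RPS13, and the estimate for HG-LI minus LG-HI became 0.43 for RPS16 and its median over members 0.33. With the length-weighted mean of all exon regions, gain became −0.084 for RPS20, −0.017 for RPS13 and −0.087 for RPL10A, and the last comparison −0.10 for RPS20. Without the 5 libraries, gain became −0.04 for RPL10A, and the interaction −0.22 for RPL26L1 and 0.055 for RPL35A. Without the 5 libraries the members' median became −0.13 for intake, 0.01 for the interaction and 0.03 for HG-LI minus LG-HI, against 0.13, −0.21 and −0.21 with all 16. Without animal 3 of LG-LI the median for the interaction was 0.08, and without animal 2 of HG-LI that for HG-LI minus LG-HI was 0.12. The cause was not tested.

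Members with an unadjusted p under 0.05 numbered 0 to 26 for gain, 1 to 20 for intake, 0 to 1 for the interaction and 0 to 23 for HG-LI minus LG-HI when 1 library was left out. The highest numbers were reached without animal 3 of LG-LI for gain and for HG-LI minus LG-HI, where 31.3% and 28.8% of all tested genes had such a p, and without animal 4 of HG-HI for intake, where 25.0% did.

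Mean summed levels were 5801 in HG-HI, 5382 in HG-LI, 7520 in LG-HI and 6794 in LG-LI as length-weighted means. With the best region that holds no first exon they were 8038 in HG-HI, 8031 in HG-LI, 8910 in LG-HI and 8726 in LG-LI. Leaving out 1 animal gave 10416 to 11803 in HG-HI, 9851 to 12364 in HG-LI, 12718 to 13525 in LG-HI and 11849 to 14631 in LG-LI. Centring each library on its median moved the median log2 difference of all tested genes to 0.15 for gain, −0.13 for intake and 0.33 for the last comparison, with members at 0.14, −0.0005 and 0.11; scaling to exons without mitochondrial regions gave 0.07, −0.04 and 0.16, with members at 0.07, 0.10 and −0.06. With the best region that holds no first exon, 67 members were tested. Their median was 0.03 for gain, −0.06 for intake and 0.10 for the last comparison, with all tested genes at −0.03, −0.03 and 0.05. With the index in the model the members' median for gain was 0.27. The sign of the members' median thus depends on the scaling, the region chosen and the model. The precision is set by 4 animals a group and 1 library an animal, and levels near that of 1 read rest on few reads.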
